A study of Mus musculus with 16 samples.

Results

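The 10 genes described here are grouped as genes of late red cell maturation: Xpo7, Trim58, Trim10, Tmcc2, Bnip3l, Foxo3, E2f2, Tspan33, Cldn13 and Ctse. They were taken by name as the probe sets that map to 1 gene symbol, with the highest-mean probe set where a gene had more, and they are 10 of the 15742 genes with 1 symbol that were tested. All 10 passed the filter on dim probe sets, and every one of their values, the lowest being 5.98, lay above its level of 3.74. Values are log2 signal from Affymetrix whole-transcript arrays of total RNA, so a difference of 1 is a 2-fold change in signal. The samples were single-cell suspensions of fetal liver from mouse embryos at day 14.5 (E14.5) and day 12.5 (E12.5) of gestation, in 4 genotypes. ERG/GATA1s embryos carried both an ERG transgene and the GATA1s allele, WT/GATA1s embryos carried the GATA1s allele alone, ERG Tg embryos carried the transgene alone, and WT embryos carried neither. A female-labelled and a male-labelled array made up each of the 8 groups, 2 arrays a group. Whether a sample came from a single embryo or from several pooled is unstated, and the p-values therefore cover only the spread between these samples, which may be technical. The promoter that drives the transgene, and whether females carried 1 copy of the X-linked allele or 2, are unstated in the sources used here.

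Red cells mature in the fetal liver through a fixed series of steps: a committed erythroblast fills with haemoglobin, leaves the cell cycle, condenses and expels its nucleus, and then clears its mitochondria and remodels its membrane. GATA1 is the transcription factor that directs this programme together with partners at erythroid genes, and GATA1s, a shorter form, is missing the N-terminal part of it. ERG is an ETS-family regulator of stem cells of the blood and of megakaryocytes. The 10 genes are grouped as late maturation genes, and a late step is named here for only some of them. Xpo7 is a nuclear exportin and Trim58 a ubiquitin ligase, both studied in mouse erythroblasts for their part in the condensation and expulsion of the nucleus. Bnip3l (Nix) is the receptor that marks mitochondria for removal, and Foxo3 and E2f2 are transcription factors of oxidative stress defence and cell cycle exit. Trim10 is a relative of Trim58, and Tmcc2, Tspan33, Cldn13 and Ctse encode erythroid-enriched proteins of membranes or the endosomal system.

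Since GATA1 is one of the factors of the design, the RefSeq promoters of the genes (GRCm38.p6, 250 bases before to 50 after a start site) were searched on both strands for the GATA motifs AGATAA and TGATAA. Promoters were held for 6 of the 10 genes, with 9 start sites, namely Trim58, Trim10, Tmcc2, Foxo3, E2f2 and Tspan33. A GATA motif lay in 2 of the 9 windows, and 18.6% of the 32851 mouse promoters in the table hold at least 1. Both are shown with the motif in capitals, which read TTATCT because it lies on the other strand. In Trim10 (chr17:36869324-36869623, plus strand) the motif starts at position -163 from the start site, and in the third Tmcc2 start site (chr1:132367899-132368198, minus strand) at -33. The Trim58 promoter (chr11:58640215-58640514, plus strand) is set beside them because it held neither these motifs nor the E-box CANNTG (in 72.3% of promoters) nor the KLF motif CCNCNCCC (in 49.5%), which were also searched. Other spellings of the GATA motif, such as AGATAG, were not searched, and AGATAG occurs in the Trim58 and Tmcc2 windows shown. A match is a description of the letters, and the arrays measured no binding.
Trim10: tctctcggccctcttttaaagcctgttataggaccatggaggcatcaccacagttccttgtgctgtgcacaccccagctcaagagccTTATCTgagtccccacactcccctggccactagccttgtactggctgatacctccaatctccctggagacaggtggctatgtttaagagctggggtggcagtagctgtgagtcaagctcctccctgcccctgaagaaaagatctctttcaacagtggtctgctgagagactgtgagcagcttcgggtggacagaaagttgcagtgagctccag
Tmcc2: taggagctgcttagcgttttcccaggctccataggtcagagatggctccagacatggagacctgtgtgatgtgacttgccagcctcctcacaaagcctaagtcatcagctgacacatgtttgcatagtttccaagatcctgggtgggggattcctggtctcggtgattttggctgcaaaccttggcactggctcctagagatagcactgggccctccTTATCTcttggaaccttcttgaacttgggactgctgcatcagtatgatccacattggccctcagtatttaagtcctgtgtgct
Trim58: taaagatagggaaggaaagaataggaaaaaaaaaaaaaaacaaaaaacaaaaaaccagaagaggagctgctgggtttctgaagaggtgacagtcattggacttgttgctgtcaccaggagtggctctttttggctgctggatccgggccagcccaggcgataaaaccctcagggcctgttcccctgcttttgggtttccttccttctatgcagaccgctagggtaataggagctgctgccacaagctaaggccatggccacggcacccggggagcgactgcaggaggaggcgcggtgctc

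Several arrays stood apart before any gene was compared. Array medians ran from 4.79 to 4.94. Xist and Y-linked markers opposed the labelled sex on 3 arrays: female E14.5 ERG/GATA1s, male E12.5 ERG/GATA1s and male E12.5 WT/GATA1s. The markers therefore place both E14.5 ERG/GATA1s arrays on the male side, and both E12.5 ERG/GATA1s and both E12.5 WT/GATA1s arrays on the female side. By the markers the stage difference in ERG/GATA1s sets male arrays against female ones, so stage and sex cannot be told apart there, and at E14.5 ERG/GATA1s is set against a WT group with 1 array on each side. Xist and Y-linked signal were mixed on the E12.5 WT and E14.5 ERG Tg arrays labelled male and intermediate on the E12.5 ERG Tg array labelled male. The main results are given with all 16 arrays and without the 3 opposing ones. That omission leaves 1 ERG/GATA1s array at each stage and 1 WT/GATA1s array at E12.5, and assumes that each varies like the other groups. In ERG/GATA1s against WT, over both stages, at E14.5 and in the change between stages, fewer of all units passed without the 3 arrays too. The same held at E14.5 for ERG/GATA1s against WT/GATA1s and against ERG Tg. Erg signal lay between 5.66 and 6.01 in ERG/GATA1s, 5.32 and 5.80 in WT/GATA1s, 5.58 and 5.88 in ERG Tg and 5.35 and 5.53 in WT. Whether that probe set measures the transgene was not tested, and it was not used to check a label.

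The 10 genes together were lowest in the E14.5 livers that carried both ERG and GATA1s. At E14.5 the mean of the 10 signals was 8.35 and 8.11 in ERG/GATA1s, 9.05 and 8.94 in WT/GATA1s, 9.21 and 9.07 in ERG Tg, and 9.68 and 9.31 in WT (the array labelled female first, here and below). No pair of these groups overlapped. At E12.5 the same mean was 8.79 and 8.39 in ERG/GATA1s, 8.67 and 8.71 in WT/GATA1s, 8.748 and 7.962 in ERG Tg, and 8.776 and 8.75 in WT. At that stage the ERG/GATA1s arrays spanned those of WT and WT/GATA1s, and both WT arrays lay just above both arrays of WT/GATA1s and of ERG Tg, whose male-labelled array was the lowest. Of the 8 groups, E14.5 WT was the highest for 8 of the genes, and E14.5 ERG/GATA1s was the lowest for 7 and E12.5 ERG Tg for the other 3 (Trim10, Tmcc2 and E2f2). Most neighbours in the order of group means were not separated by their arrays: of the 7 neighbouring pairs, between 0 (Bnip3l) and 3 (Trim10 and Tmcc2) did not overlap.

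**Figure D1:**
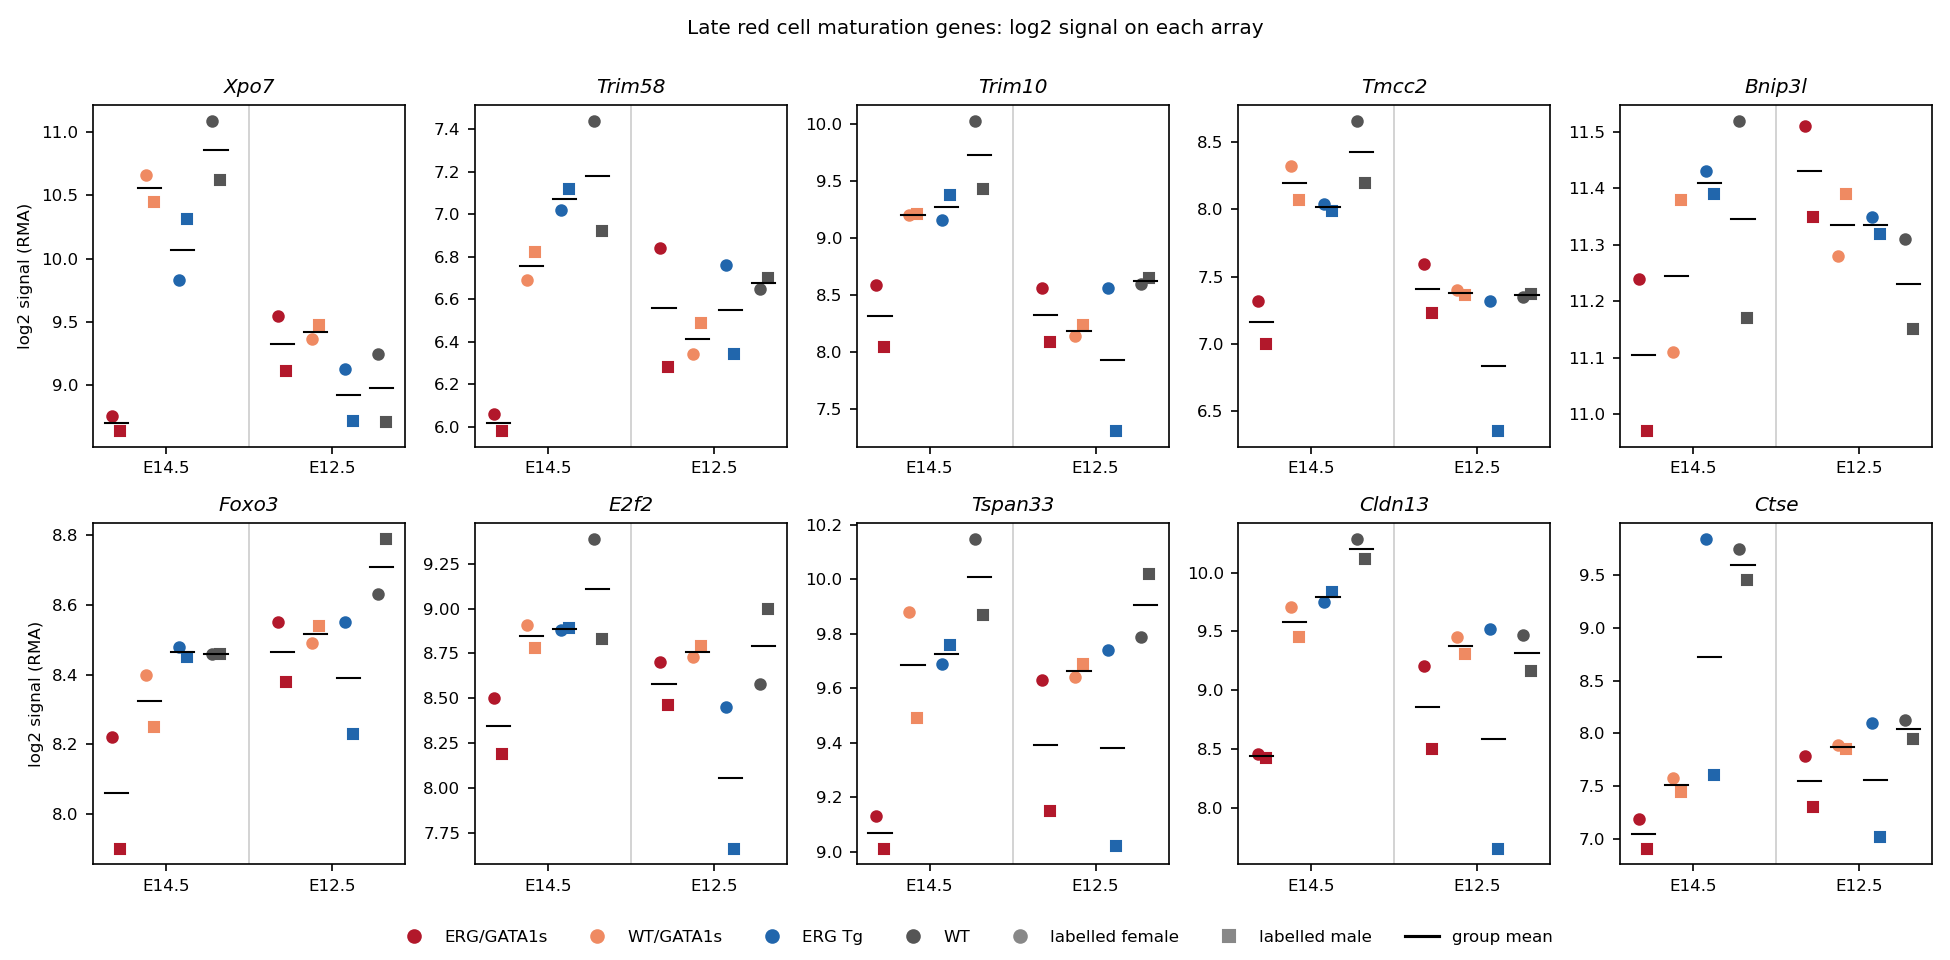
Each panel plots the log2 signal of 1 gene on each of the 16 arrays, with E14.5 on the left and E12.5 on the right of each panel and genotypes in colour, the labelled sex as the marker shape and the mean of a group's 2 arrays as a line. Vertical scales differ between panels; the E14.5 ERG/GATA1s arrays sit below the other 6 E14.5 arrays in 9 of the 10 panels, Bnip3l being the exception.

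Both E14.5 ERG/GATA1s arrays lay below all 6 other E14.5 arrays for 9 of the 10 genes, a pattern that 10.1% of all units tested showed. In limma's test of ERG/GATA1s against WT at E14.5, 8 of the 10 genes fell, where 4.69% of all units did. The median difference of the 10 was -1.22, against -0.02 over all genes. Foxo3 and Bnip3l did not pass. The samples are bulk cell suspensions, in which fewer red cells and less RNA per red cell cannot be told apart.

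The genes of nuclear condensation and expulsion differed strongly. Xpo7 had 8.76 and 8.64 in E14.5 ERG/GATA1s, 10.66 and 10.45 in WT/GATA1s, 9.83 and 10.31 in ERG Tg, and 11.09 and 10.62 in WT. The ERG/GATA1s arrays were more than a log2 unit below every other E14.5 array, and WT/GATA1s overlapped WT. Xpo7 fell 4.45-fold in ERG/GATA1s against WT (log2 difference -2.16 ± 0.21, SE, adjusted p = 6.44e-05). It passed with any single array left out, and without the 3 arrays of opposing sex markers (-2.10 ± 0.28, adjusted p = 0.0175). Trim58 had 6.06 and 5.98 in ERG/GATA1s, 6.69 and 6.82 in WT/GATA1s, 7.02 and 7.12 in ERG Tg, and 7.44 and 6.92 in WT. Here the ERG Tg arrays lay between the WT arrays, while both WT/GATA1s arrays were below them. Trim58 fell 2.23-fold (-1.16 ± 0.19, adjusted p = 0.0018), again with any single array left out and without the 3 arrays (-1.13 ± 0.23, adjusted p = 0.047).

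Trim10 and Tmcc2 also fell. Trim10 belongs to the same tripartite motif family as Trim58 and is needed for the differentiation of mouse erythroleukaemia cells, and Tmcc2 encodes a membrane protein with coiled coils. Trim10 had 8.59 and 8.05 in E14.5 ERG/GATA1s, 9.20 and 9.21 in WT/GATA1s, 9.16 and 9.38 in ERG Tg, and 10.03 and 9.43 in WT. The single-allele groups lay together between ERG/GATA1s and WT. Trim10 fell 2.66-fold in ERG/GATA1s against WT (-1.41 ± 0.27, adjusted p = 0.00543), but did not pass without the male-labelled E14.5 ERG/GATA1s array or the female-labelled E14.5 WT array (adjusted p up to 0.0644). Tmcc2 had 7.32 and 7.0 in ERG/GATA1s, 8.32 and 8.07 in WT/GATA1s, 8.04 and 7.99 in ERG Tg, and 8.66 and 8.20 in WT. It fell 2.41-fold (-1.27 ± 0.20, adjusted p = 0.00115) and passed with any single array left out. Without the 3 arrays the differences were -1.52 for Trim10 (adjusted p = 0.0912) and -1.26 for Tmcc2 (adjusted p = 0.0567), neither of which passed.

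The regulators and the mitochondrial receptor moved least. E2f2, which limits cell division in maturing erythroblasts, had 8.50 and 8.19 in E14.5 ERG/GATA1s, 8.91 and 8.78 in WT/GATA1s, 8.88 and 8.89 in ERG Tg, and 9.39 and 8.83 in WT. It fell 1.70-fold in ERG/GATA1s against WT (-0.77 ± 0.22, adjusted p = 0.0449), a call that was lost when any of 11 of the 16 arrays was left out (adjusted p up to 0.307). Among those 11 were both E14.5 ERG/GATA1s arrays and the female-labelled E14.5 WT array. Foxo3 had 8.22 and 7.90 in ERG/GATA1s, 8.40 and 8.25 in WT/GATA1s, 8.48 and 8.45 in ERG Tg, and 8.46 and 8.46 in WT, and its difference of -0.40 ± 0.14 did not pass (adjusted p = 0.104). Bnip3l had 11.24 and 10.97 in ERG/GATA1s, 11.11 and 11.38 in WT/GATA1s, 11.43 and 11.39 in ERG Tg, and 11.52 and 11.17 in WT. These ranges overlapped in ERG/GATA1s, WT/GATA1s and WT, and the difference of -0.24 ± 0.15 did not pass (adjusted p = 0.432). A second Bnip3l probe set read 10.85 and 10.59 in E14.5 ERG/GATA1s and 11.17 and 10.89 in WT. RefSeq also lists a Bnip3l pseudogene, so what each probe set measures is uncertain.

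The membrane and endosomal genes held the largest difference of the 10. Ctse encodes cathepsin E, an aspartic protease of red cell precursors. Its E14.5 signal was 7.19 and 6.91 in ERG/GATA1s, 7.58 and 7.45 in WT/GATA1s, 9.84 and 7.61 in ERG Tg, and 9.74 and 9.45 in WT. Both GATA1s-bearing groups lay below every other E14.5 array, and the ERG Tg arrays were 2.23 log2 units apart, the widest gap between partners for any of the 10 genes. Ctse fell 5.84-fold in ERG/GATA1s against WT (-2.54 ± 0.39, adjusted p = 0.00106), with any single array left out. Cldn13 is a claudin of mouse erythroid cells. Its E14.5 signal was 8.46 and 8.42 in ERG/GATA1s, 9.71 and 9.45 in WT/GATA1s, 9.75 and 9.84 in ERG Tg, and 10.29 and 10.12 in WT, so the ERG/GATA1s arrays were about a log2 unit below the nearest other array. It fell 3.40-fold (-1.76 ± 0.34, adjusted p = 0.00476), but not without the female-labelled E14.5 ERG/GATA1s array (adjusted p = 0.0732). Tspan33, a tetraspanin also known as Penumbra, had 9.13 and 9.01 in ERG/GATA1s, 9.88 and 9.49 in WT/GATA1s, 9.69 and 9.76 in ERG Tg, and 10.15 and 9.87 in WT. The drop was 1.92-fold (-0.94 ± 0.20, adjusted p = 0.00843), and the call was lost without either E14.5 ERG/GATA1s array or the female-labelled E14.5 WT array (adjusted p up to 0.0886). Without the 3 arrays of opposing sex markers Ctse differed by -2.29 (adjusted p = 0.0802), Cldn13 by -1.53 (adjusted p = 0.16), Tspan33 by -0.89 (adjusted p = 0.131) and E2f2 by -0.81 (adjusted p = 0.248), and none of these 4 passed.

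**Figure D2:**
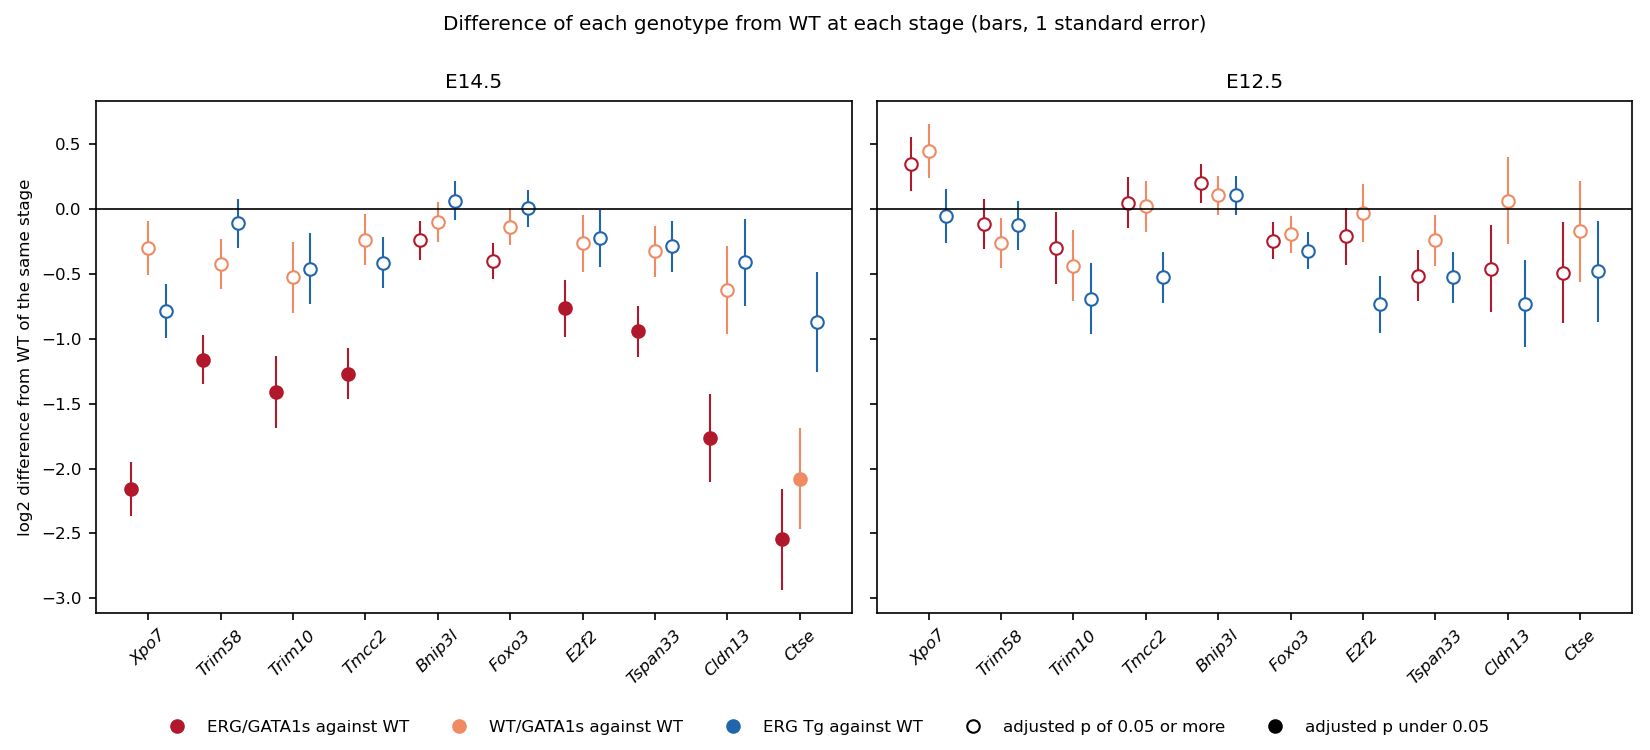
Points give the log2 difference of ERG/GATA1s, WT/GATA1s and ERG Tg from WT of the same stage for each gene, E14.5 in the left panel and E12.5 in the right, with bars of 1 standard error from the limma fit and filled points where the adjusted p is under 0.05. At E14.5 8 ERG/GATA1s points and the WT/GATA1s point of Ctse are filled, and at E12.5 none is.

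At E12.5 the differences of ERG/GATA1s from WT were 0.35 for Xpo7, -0.12 for Trim58, -0.30 for Trim10 and 0.05 for Tmcc2, and none passed. Xpo7 was 9.55 and 9.11 in ERG/GATA1s, 9.37 and 9.48 in WT/GATA1s, 9.13 and 8.72 in ERG Tg, and 9.25 and 8.71 in WT, with ERG/GATA1s and WT overlapping. Trim10 was 8.56 and 8.09 in ERG/GATA1s, 8.14 and 8.24 in WT/GATA1s, 8.56 and 7.31 in ERG Tg, and 8.60 and 8.65 in WT. Tmcc2 was 7.59 and 7.23 in ERG/GATA1s, 7.40 and 7.36 in WT/GATA1s, 7.32 and 6.35 in ERG Tg, and 7.35 and 7.37 in WT. For both genes the male-labelled ERG Tg array was the lowest of the 16. Trim58 was 6.84 and 6.28 in ERG/GATA1s, 6.34 and 6.49 in WT/GATA1s, 6.76 and 6.34 in ERG Tg, and 6.65 and 6.70 in WT, all groups but WT/GATA1s and WT overlapping.

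Among the membrane and endosomal genes, Cldn13 was 9.21 and 8.50 in E12.5 ERG/GATA1s, 9.45 and 9.31 in WT/GATA1s, 9.52 and 7.65 in ERG Tg, and 9.47 and 9.16 in WT. Ctse was 7.79 and 7.31 in ERG/GATA1s, 7.89 and 7.85 in WT/GATA1s, 8.10 and 7.02 in ERG Tg, and 8.13 and 7.95 in WT. Tspan33 was 9.63 and 9.15 in ERG/GATA1s, 9.64 and 9.69 in WT/GATA1s, 9.74 and 9.02 in ERG Tg, and 9.79 and 10.02 in WT. For Ctse and Tspan33 both WT arrays lay above both arrays of ERG/GATA1s, and for all 3 genes the ERG Tg pair was the widest. E2f2 was 8.7 and 8.46 in ERG/GATA1s, 8.73 and 8.79 in WT/GATA1s, 8.45 and 7.66 in ERG Tg, and 8.58 and 9.0 in WT. Foxo3 spanned 8.23 to 8.79 and Bnip3l 11.15 to 11.51 over the 8 arrays of E12.5, and Foxo3 was highest in WT.

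At E12.5 no gene of the 10 passed between ERG/GATA1s and WT by limma, in a comparison where 0.00615% of all units passed. Before adjustment only Tspan33 was under 0.05, at -0.52 ± 0.20, where 15.8% of all units were. Xpo7 differed by 0.35 ± 0.21 (adjusted p = 0.409), in the direction opposite to that at E14.5. Ctse differed by -0.49 ± 0.39 (adjusted p = 0.526). Averaged over both stages, 7 of the 10 genes fell in ERG/GATA1s against WT, where 6.52% of all units did. They were Ctse (-1.52 ± 0.27, adjusted p = 0.0039), Cldn13, Xpo7, Trim10, Tspan33, Trim58 and Tmcc2 (-0.61 ± 0.14, adjusted p = 0.0133). Ctse, Cldn13, Trim10 and Tspan33 were lower in 4 of 4 pairs of the same stage and labelled sex, Trim58 and Tmcc2 in 3 of 4 and Xpo7 in 2 of 4. The male-labelled ERG/GATA1s array of E12.5, which had the lowest SD over probe sets of the 16 (2.03), was below its partner for all 10 genes. Without it, or without its male-labelled counterpart in E12.5 WT, 4 of the 7 genes passed, and without the 3 arrays of opposing sex markers none did, with differences from -0.52 (Trim58) to -1.47 (Ctse). The Trim10 call was also lost without the E14.5 ERG/GATA1s array labelled male, and those of Tmcc2 and Cldn13 without the one labelled female (adjusted p up to 0.0756).

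With the GATA1s allele alone, Ctse was the 1 gene of the 10 that fell. At E14.5 it was 4.23-fold lower in WT/GATA1s than in WT (-2.08 ± 0.39, adjusted p = 0.0202), where 0.314% of all units fell. Averaged over both stages the drop was 2.18-fold (-1.13 ± 0.27, adjusted p = 0.0381, lower in 4 of 4 pairs), where 1.63% fell. At E12.5 its difference was -0.17 ± 0.39 and did not pass. No member passed there, where 1.33% of all units did. None of the 10 was under 0.05 before adjustment, where 16.2% of all units were. The E14.5 call was lost without either E14.5 WT/GATA1s array or the female-labelled E14.5 WT array (adjusted p up to 0.162), and the call over both stages when any of 10 of the 16 arrays was left out (adjusted p up to 0.217). Without the 3 arrays of opposing sex markers neither passed, with differences of -2.08 at E14.5 (adjusted p = 0.0982) and -1.31 over both stages (adjusted p = 0.0993). The other genes of E14.5 WT/GATA1s were all lower than WT in group mean, from -0.10 (Bnip3l) to -0.63 (Cldn13), and none of them passed.

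With the transgene alone no member passed. The share of all units that did was 0.283% over both stages, 0% at E12.5 and 1.69% at E14.5. Before adjustment 7, 6 and 2 of the 10 genes were under 0.05, where 7.69%, 4.1% and 9.56% of all units were. At E14.5 the lowest adjusted p was that of Xpo7, at -0.79 ± 0.21 (adjusted p = 0.0867), and Xpo7 passed without the ERG Tg array labelled male (-1.17 ± 0.21, adjusted p = 0.0164). Ctse passed at E14.5 without the ERG Tg array labelled female, where it rests on the single value of 7.61 (-1.81 ± 0.26, adjusted p = 0.0139), and also over both stages (-1.14 ± 0.17, adjusted p = 0.0285). The E12.5 ERG Tg array labelled male was below its partner for all 10 genes, by 1.87 for Cldn13 (7.65 and 9.52). With the female partner left out, so that this array stood for the group, Cldn13 passed at E12.5 (-1.55 ± 0.21, adjusted p = 0.03), and Trim10, Tmcc2 and Cldn13 passed over both stages (-0.84, -0.66 and -0.98). Its sex markers lay between those of the other arrays, as given above. On it the red cell core genes had a lower mean than on its partner (9.29 against 9.90). Lower too were the means of hepatocyte (9.28 against 9.98), granulocyte (7.14 against 7.61) and macrophage markers (6.12 against 6.24). Megakaryocyte (7.971 against 7.902), progenitor (7.574 against 7.48) and endothelial markers (6.255 against 6.003) had higher means on it.

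Both alleles were then set against each alone at E14.5, in comparisons added after the values had been seen that share the ERG/GATA1s arrays. Against WT/GATA1s, Xpo7 fell 3.62-fold (-1.85 ± 0.21, adjusted p = 0.000932) and Tmcc2 2.05-fold (-1.04 ± 0.20, adjusted p = 0.0175), 2 of 10 where 0.929% of all units fell. Ctse, the gene that differed with GATA1s alone, was -0.47 ± 0.39 here and did not pass (adjusted p = 0.967). The Tmcc2 call was lost without any 1 of the 4 arrays compared (adjusted p up to 0.145). Against ERG Tg, Xpo7 (-1.37), Trim58 (-1.05), Tmcc2 (-0.86), Cldn13 (-1.35) and Ctse (-1.68) fell, 5 of 10 where 3.74% of all units fell. Xpo7 alone kept its call with any single array left out. Without either E14.5 ERG/GATA1s array fewer members passed in both comparisons, and without the 3 arrays of opposing sex markers no member did. With those 3 left out 1 E14.5 ERG/GATA1s array remained, and fewer of all units passed too. The median difference of the 10 genes was then -0.637 against WT/GATA1s and -0.934 against ERG Tg. With all arrays it was -0.675 and -0.902. Over both stages 1 member, Trim58, fell against ERG Tg (-0.52 ± 0.13, adjusted p = 0.0288), where 5% of all units did. It was lower in 3 of 4 pairs, and any of 5 arrays ended the call when left out: the E12.5 ERG Tg array labelled female, the E14.5 ERG Tg array labelled male, the male-labelled E12.5 ERG/GATA1s array and both E14.5 ERG/GATA1s arrays (adjusted p up to 0.15).

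Whether the joint difference departs from the sum of the separate ones was tested as an ERG by GATA1s interaction. At E14.5, also added after the values had been seen, none of the 10 genes passed, where 0.0984% of all units did. Xpo7, Trim58 and Tmcc2 were under 0.05 before adjustment, where 4.91% of all units were. The largest term was that of Xpo7, at -1.07 ± 0.30 (adjusted p = 0.401). Over both stages none passed either, where 0.0123% of all units did. Before adjustment 1 gene was under 0.05, where 4.39% of all units were.

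The direction from E12.5 to E14.5 is given first as group means, without a test. In ERG/GATA1s all 10 group means were lower at E14.5 than at E12.5 (median -0.37). In WT/GATA1s 7 were higher (median 0.14), in ERG Tg all 10 were higher (median 0.99) and in WT 9 were higher (median 0.70). The arrays of the 2 stages overlapped for Trim10, Tmcc2 and E2f2 in ERG/GATA1s, and for some genes in each other genotype. The ERG Tg values rest on the low E12.5 array labelled male: without it 8 were higher and 2, Foxo3 and Tspan33, lower, with a median of 0.37. Xpo7 shows the pattern most plainly: its E14.5 mean minus its E12.5 mean was -0.63 in ERG/GATA1s, 1.13 in WT/GATA1s, 1.15 in ERG Tg and 1.88 in WT, with no overlap between stages in any genotype. The Xpo7 difference between ERG/GATA1s and WT at E14.5 minus that at E12.5 was -2.50 ± 0.30 (adjusted p = 0.00292), and Xpo7 was the 1 gene of the 10 to pass, where 0.203% of all units did. It did so with any single array left out. Without the 3 arrays of opposing sex markers the Xpo7 difference was -2.56 ± 0.41 and did not pass. That fit keeps 1 ERG/GATA1s array at each stage, and fewer of all units passed in it too. For Trim58 the stage difference was -0.54 in ERG/GATA1s, 0.34 in WT/GATA1s, 0.52 in ERG Tg and 0.51 in WT. For Ctse it was -0.50 in ERG/GATA1s and -0.35 in WT/GATA1s, and 1.17 in ERG Tg and 1.56 in WT, the ERG Tg arrays overlapping between stages. No test of these passed: the terms against WT had adjusted p = 0.11 for Trim58 in ERG/GATA1s, and 0.121 in ERG/GATA1s and 0.186 in WT/GATA1s for Ctse. Trim10 was flat in ERG/GATA1s (0.00) and 1.02 to 1.33 higher at E14.5 in the other genotypes.

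**Figure D3:**
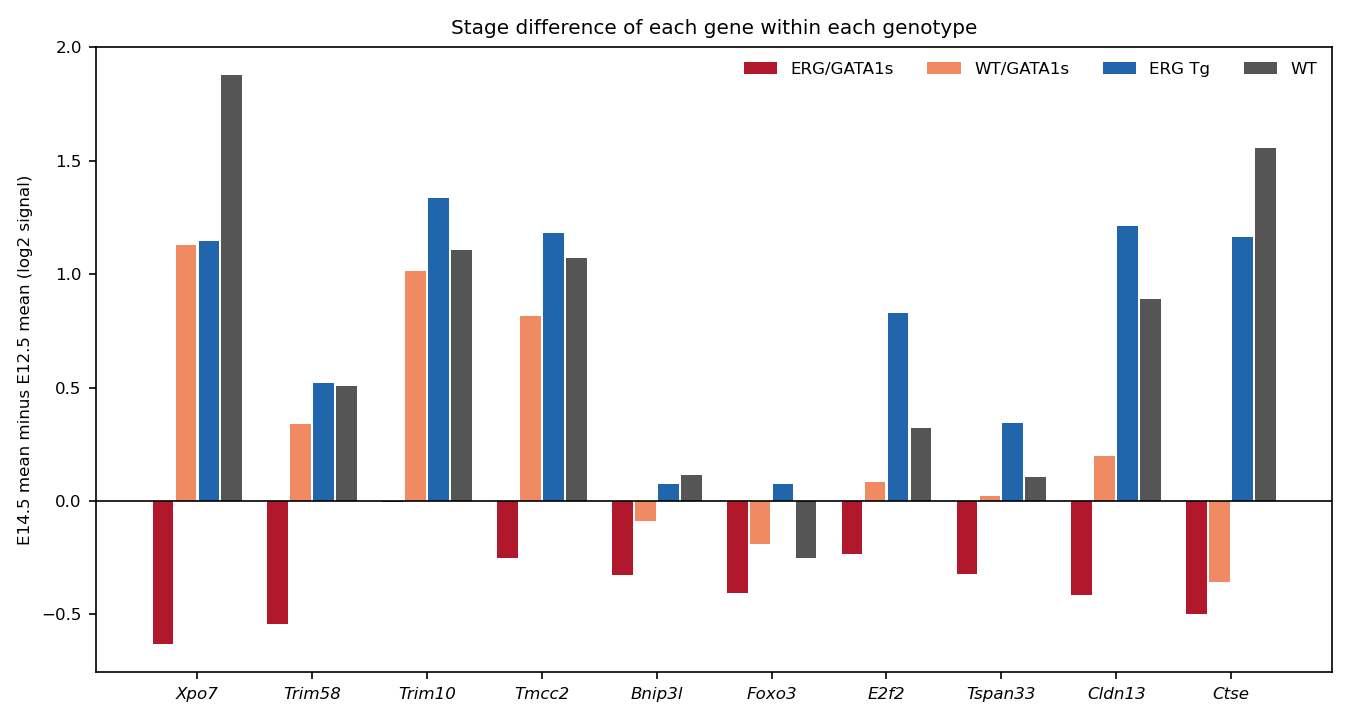
Bars give the E14.5 group mean minus the E12.5 group mean in log2 signal for each gene in ERG/GATA1s, WT/GATA1s, ERG Tg and WT, each mean over 2 arrays, with no error bar. All 10 ERG/GATA1s bars lie at or below 0, the Trim10 bar being too short to see, and the WT bar of Xpo7 is the longest at 1.88.

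The F test over the stage by genotype terms passed for 2 of the 10, Xpo7 (adjusted p = 0.00444) and Tmcc2 (adjusted p = 0.0332), where 2.42% of all units passed, and for no other gene of the 10. The Tmcc2 call was lost when any of 11 of the 16 arrays was left out (adjusted p up to 0.128), both E14.5 ERG/GATA1s arrays among them, and neither gene passed without the 3 arrays. Averaged over genotypes, 4 genes rose at E14.5 against E12.5 (Xpo7 by 0.88 ± 0.10, Trim10 by 0.86 ± 0.14, Tmcc2 by 0.70 ± 0.10 and Cldn13 by 0.47 ± 0.17) where 29% of all units rose, and Foxo3 fell (-0.19 ± 0.07) where 27.2% fell. The 4 of 10 are close to the first background and the 1 of 10 is below the second. Hepatocyte markers (11 of 11) and macrophage markers (8 of 8) rose between the stages and progenitor markers fell (7 of 7), and their part in the stage differences was not tested. Cldn13 was lost without any of 7 arrays and Foxo3 without any of 8 (adjusted p up to 0.0764 and 0.0992).

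Other genes of the late programme fell in part. Of 31 measured genes of autophagy, ubiquitin handling, nuclear remodelling and cell cycle exit, 13 fell and 2 rose in ERG/GATA1s against WT at E14.5 (median -0.54), where 4.69% of all units fell and 4.47% rose. Over both stages 14 fell and 2 rose (median -0.36), where 6.52% fell and 4.06% rose. Without the 3 arrays of opposing sex markers the counts were 4 and 2 at E14.5 and 2 and 1 over both stages. Over both stages Ypel4 (-1.26 ± 0.19), the cyclin-dependent kinase inhibitor Cdkn2c (-1.21 ± 0.16) and the ubiquitin-conjugating enzyme Ube2l6 (-0.86 ± 0.13) fell, while Rac2, a GTPase also abundant in myeloid cells, rose (0.86 ± 0.12). On the E14.5 arrays Cdkn2c read 5.77 and 5.25 in ERG/GATA1s and 7.52 and 7.0 in WT, and Rac2 read 10.53 and 10.29 in ERG/GATA1s and 8.80 and 9.08 in WT, neither with any overlap. In WT/GATA1s against WT over both stages, Cdkn2c fell (-0.73 ± 0.16) and Rac2 rose (0.61 ± 0.12). Of 19 measured red cell core genes, which cover haem synthesis, membrane skeleton, blood group and erythroid factors, 15 fell in ERG/GATA1s against WT at E14.5 (median -0.88) and 15 over both stages, and without those 3 arrays 6 and 3 did. The blood group gene Rhd (-1.05 ± 0.13), the transferrin receptor Tfrc (-1.03 ± 0.17), the haem synthesis enzyme Uros (-1.13 ± 0.18) and the mitochondrial iron importer Slc25a37 (-0.79 ± 0.12) were among those over both stages. In WT/GATA1s 3 of the 19 fell over both stages, namely Rhd, the spectrin Sptb and Ermap, and 0 without those arrays by limma (12 under 0.05 before adjustment).

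Markers of other cells also differed between groups. At E14.5 the mean of the red cell core genes was 9.08 to 9.41 in ERG/GATA1s and 9.998 to 10.31 in WT. Megakaryocyte markers rose in ERG/GATA1s against WT for 5 of 8 genes, with means of 9.13 to 9.24 in ERG/GATA1s and 8.09 to 8.16 in WT. Granulocyte markers rose for 5 of 7, with means of 8.45 to 8.79 in ERG/GATA1s and 7.38 to 7.95 in WT. Hepatocyte markers did not pass for any of 11 genes by limma (1 under 0.05 before adjustment), with means of 10.86 to 11.18 in ERG/GATA1s and 10.54 to 11.26 in WT. Endothelial markers rose for 2 of 6, macrophage markers fell for 1 of 8 and progenitor markers rose for 1 of 7. In E14.5 WT/GATA1s, 4 of 8 megakaryocyte markers rose too, with means of 8.62 to 9.11. In E14.5 ERG Tg the granulocyte markers fell for 5 of 7 (means of 6.396 to 6.536), and of the megakaryocyte markers 3 fell and 1 rose (means of 7.99 to 8.16). Without the 3 arrays of opposing sex markers, 2 of 8 megakaryocyte markers and 0 of 7 granulocyte markers (5 under 0.05 before adjustment) rose in E14.5 ERG/GATA1s by limma.

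At E12.5 the hepatocyte markers had their lowest means in the GATA1s groups. These means were 8.62 to 8.84 in ERG/GATA1s, 8.60 to 8.63 in WT/GATA1s, 9.28 to 9.98 in ERG Tg and 9.68 to 9.86 in WT. In WT/GATA1s 6 of 11 fell (median -1.22) and 6 of 8 megakaryocyte markers rose (median 1.21). In ERG/GATA1s none of the 11 hepatocyte markers passed by limma, although all 11 were lower and under 0.05 before adjustment (median -1.04). In the stage by genotype F test 6 of 11 hepatocyte, 4 of 7 granulocyte and 3 of 8 megakaryocyte markers passed, beside the 2 of the 10 genes given above. Over both stages, ERG/GATA1s against WT, 6 of 8 megakaryocyte markers rose and 1 fell, and 5 of 7 granulocyte markers rose. The mean of each list lay above the filter level on all arrays, and the part of other cells in the results was not tested.

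**Figure D4:**
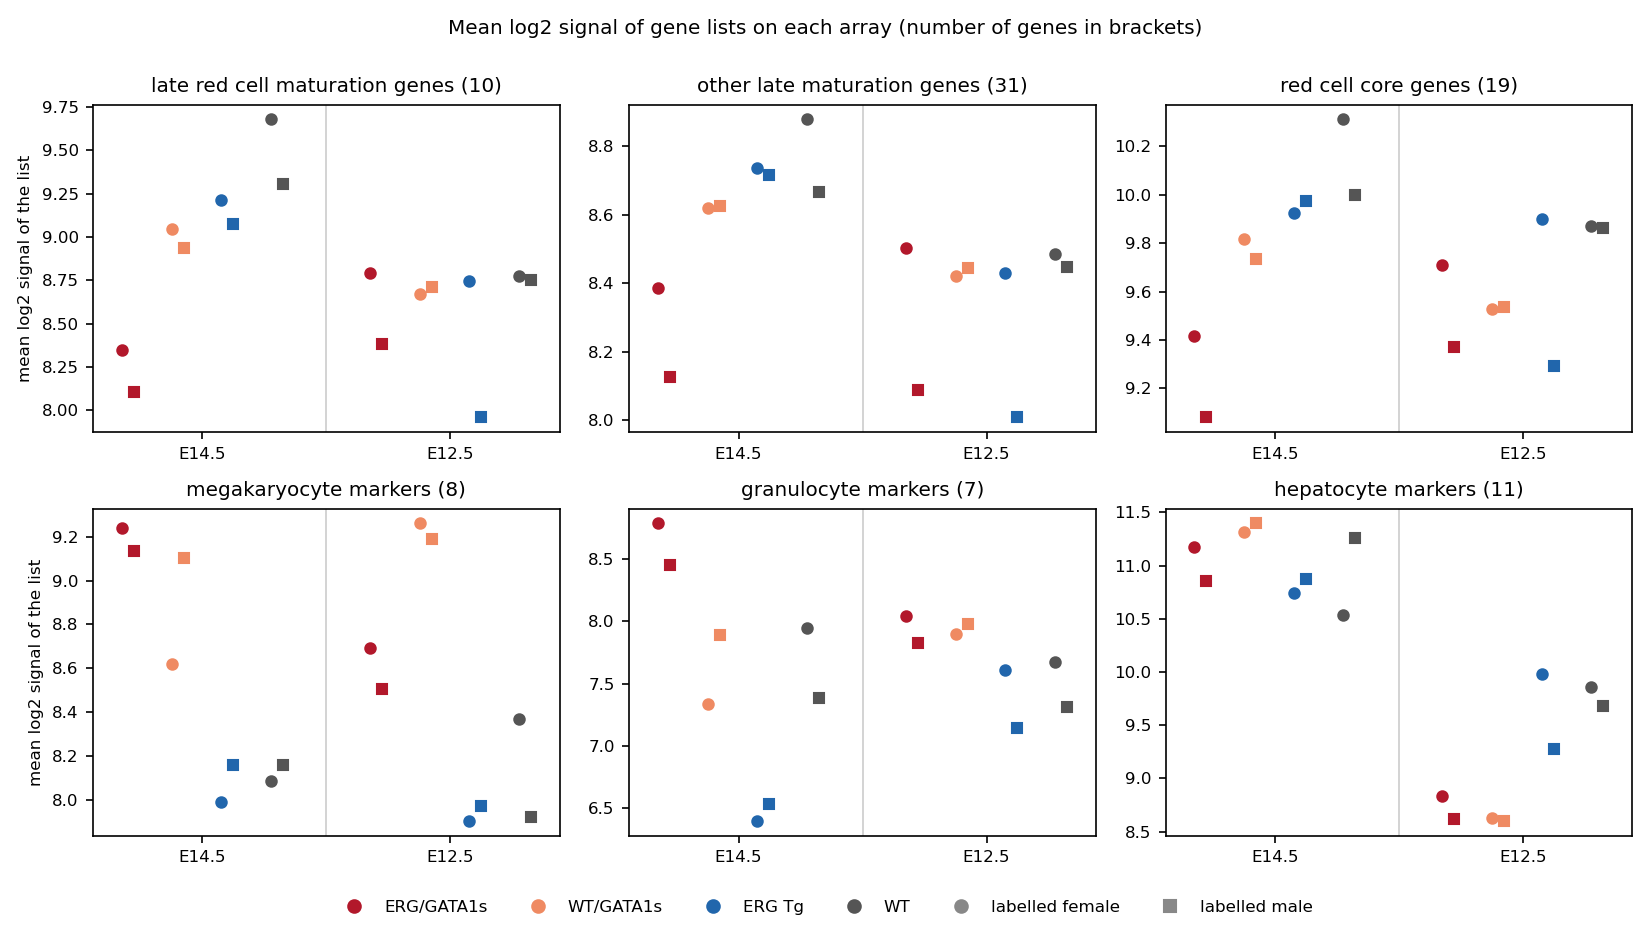
Each panel plots the mean log2 signal of 1 gene list on each of the 16 arrays, E14.5 left and E12.5 right, with genotypes in colour and the labelled sex as the marker shape; vertical scales differ. The 2 E14.5 ERG/GATA1s arrays are the lowest E14.5 arrays for the 10 genes (8.11 and 8.35), the other late maturation genes and the red cell core genes, and the highest for megakaryocyte and granulocyte markers.

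Among themselves the genes did not follow 1 profile. Over the 8 group means, Cldn13 lay closest to the mean of the other 9 (Pearson r = 0.975), Xpo7, Trim58, Trim10, Tmcc2, E2f2, Tspan33 and Ctse between 0.835 and 0.906, and Bnip3l (0.387) and Foxo3 (0.361) furthest. The 5 other genes most like the centred mean of the 10 over these 8 means were F930017D23Rik (r = 0.990), the phosphoinositide kinase Pip5k1b (0.988), the biliverdin reductase Blvrb (0.988), Cdc42ep3, an effector of the GTPase Cdc42 (0.987), and the mitochondrial protein Fam210b (0.985). These correlations share arrays and are given as a description. All 5 fell in ERG/GATA1s against WT at E14.5, from -0.60 ± 0.15 (Blvrb) to -2.05 ± 0.20 (F930017D23Rik), in the same contrast that shapes the profile they were chosen by. Without the 3 arrays of opposing sex markers F930017D23Rik (-2.01, adjusted p = 0.0175) and Fam210b (-1.45, adjusted p = 0.0418) passed.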

How the data were processed

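Total RNA of 16 fetal liver suspensions was biotin-labelled with an Affymetrix whole-transcript kit, per the labels' protocols. The deposited log2 signal per probe set was made by the authors with RMA (version unstated), per the submitters' processing notes. Background correction could therefore not be varied. Of 28270 probe sets, 21780 had 1 gene symbol, 1617 several and 4873 none in the platform annotation. A probe set was kept if 2 or more arrays exceeded 3.74, percentile 30 of the matrix, and the brightest was used per symbol, leaving 16258 units (15742 with 1 symbol, 516 with several).

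One linear model over the 16 arrays, in limma 3.58.1 under R 4.3.3, held a mean for each of the 8 groups plus the labelled sex (7 residual degrees of freedom, median residual SD 0.161). The number of arrays limits the precision. Moderated statistics came from eBayes, two-sided, and p-values were adjusted by Benjamini-Hochberg across all units, called under 0.05. The fit was tested on simulated data. Gene names follow a rule: all 10 genes, up to 4 called genes of smallest p from 2 further lists, and the 5 most like genes. The genes, lists and tests were chosen with earlier results of these data known.

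Alternatives were no filter or a stricter one, quantile normalization, median centring, no sex term, a Y-linked level as covariate, only the arrays compared, array weights, eBayes with trend, all probe sets, leaving out each array, and leaving out the 3 arrays of opposing sex markers. The E14.5 comparisons with WT/GATA1s and ERG Tg, the E14.5 interaction, the stage term of ERG/GATA1s against WT and the count of genes lowest in E14.5 ERG/GATA1s were chosen after seeing the data, as were the omission of the 3 arrays for the gene lists and of the male-labelled E12.5 ERG Tg array for the stage difference.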

Additional observations from a re-analysis of the deposited data

Results flagged for a closer look

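Xpo7 drew a closer look because its difference between ERG/GATA1s and WT was not the same at the 2 stages: the test of that change between stages gave an adjusted p of 0.00292, and the F test over all genotypes 0.00444. Its signal was 8.76 and 8.64 in E14.5 ERG/GATA1s and 11.09 and 10.62 in E14.5 WT, and 9.55 and 9.11 in E12.5 ERG/GATA1s and 9.25 and 8.71 in E12.5 WT. Tmcc2 was picked out by the F test alone (adjusted p = 0.0332), with 7.32 and 7.0 in E14.5 ERG/GATA1s and 8.66 and 8.20 in E14.5 WT. Both genes' comparisons include the female-labelled E14.5 and male-labelled E12.5 ERG/GATA1s arrays, whose sex markers oppose their labels.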

How the results depend on the processing

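Differences called for a gene and a comparison numbered 31, and under the 11 other settings and 16 omissions of an array they gave 831 values: 670 still passed, 161 kept their direction without passing and 0 changed direction. The 2 called F tests, which have no direction, gave 52 values, of which 33 still passed. The labels number no replicates, and labelled sex, which pairs the arrays, stood in every fit except the 1 without a sex term, which is the fit without that block, and the 1 with the Y-linked level in its place. Using only the arrays compared gave no value for the stage comparison, the stage by genotype terms or the interaction over both stages, which use all 16.

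Counts of the 10 genes that passed changed as follows. Shares of all units under each setting are not given here, so the counts describe these 10 genes alone. With only the arrays compared, a fit at 1 stage holds 2 arrays against 2 plus the sex term, which leaves little to estimate the spread. Settings whose count lay within a factor of 1.5 of the main one are left out. In ERG/GATA1s against WT over both stages these included 5 under the Y-linked covariate, 6 without a sex term and 8 with centred arrays. For ERG/GATA1s against WT at E14.5 the count was 8, with 4 under the Y-linked covariate, 0 with only the arrays compared, 2 without the 3 arrays of opposing sex markers, and 5 to 8 with 1 array left out. Over both stages it was 7, with 3 under array weights, 0 without the 3 arrays and 4 to 9 with 1 array left out. For WT/GATA1s against WT at E14.5 it was 1, with 0 without a sex term, without the 3 arrays, under array weights, under eBayes with trend and with only the arrays compared. Over both stages it was 1, with 0 without a filter, with centred arrays, without a sex term, without the 3 arrays, under array weights, under eBayes with trend and with all probe sets; both ran from 0 to 1 with 1 array left out. For ERG Tg against WT it was 0, and 0 to 3 over both stages, 0 to 1 at E12.5 and 0 to 1 at E14.5 with 1 array left out.

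For ERG/GATA1s against ERG Tg at E14.5 it was 5, with 2 without a sex term, 2 under the Y-linked covariate, 0 without the 3 arrays, 10 under array weights, 0 with only the arrays compared and 1 to 7 with 1 array left out. Over both stages it was 1, with 2 under the stricter filter, 0 without a sex term, 0 under the Y-linked covariate, 0 without the 3 arrays, 2 under eBayes with trend and 0 to 2 with 1 array left out. For ERG/GATA1s against WT/GATA1s at E14.5 it was 2, with 1 without a sex term, 1 under the Y-linked covariate, 0 without the 3 arrays, 5 under array weights, 0 with only the arrays compared and 1 to 4 with 1 array left out. For E14.5 against E12.5 it was 5, with 3 without the 3 arrays and 3 to 6 with 1 array left out.

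For the F test it was 2, with 1 without a filter, with centred arrays, without a sex term, under the Y-linked covariate, under array weights and with all probe sets, 0 without the 3 arrays and 1 to 4 with 1 array left out. For the stage term of ERG/GATA1s it was 1, with 0 under array weights, 2 under eBayes with trend, 2 under quantile normalization, 2 under the stricter filter, 0 without the 3 arrays and 1 to 3 with 1 array left out. The cause of these changes was not tested. An omission also leaves fewer arrays, and the part of that was not separated from the part of the arrays left out.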
